A study of Mus musculus with 2 samples.

Results

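The regions described here are the peaks of histone H3 trimethylated at lysine 27 (H3K27me3) on mouse chromosome 9. They were chosen by position alone, as every peak on chromosome 9 in the authors' replicated list, and number 2889 of 38300 peaks in that list (7.54%). The mark was mapped by sequencing of immunoprecipitated chromatin, in which an antibody to the mark pulls down the DNA wrapped around marked histones. The cells were MEL, an immortalised mouse erythroleukaemia line that the labels describe as a leukaemia line and a mouse analog of human K562. All samples form 1 group of 2 biological replicates without treatment or genotype differences in the labels, and age and sex were not recorded. Whether they were grown as separate cultures is not stated, so what differs between them could be technical. Peak lists hold no expression values, so the identity of the line could not be checked against markers. Values are given for the replicated list and for each replicate's own list, and no test between conditions exists.

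H3K27me3 is written by Polycomb repressive complex 2, a histone methyltransferase, and is read by Polycomb repressive complex 1. Both complexes keep silent genes silent, and the mark can spread over whole gene bodies and gene clusters as broad domains. In blood cells it lies over many genes of other lineages, including regulators of development.

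The DNA under the longest stretches of the mark on chromosome 9 is shown first. For each of the 5 longest domains (peaks joined where the gap was at most 3 kb) and for the block inside Dock3, the peak with the highest −log10 q was taken. Up to 300 bases around its summit were read from the RefSeq sequence of GRCm38, the build that mm10 names. Windows that touched an annotated untranslated region of a transcript were left out, which can remove windows at gene starts. Capitals mark CpG dinucleotides, the main site of DNA methylation and a feature that is dense at many promoters bound by Polycomb complexes.
Neo1 intron (chr9:58941032-58941331, + strand): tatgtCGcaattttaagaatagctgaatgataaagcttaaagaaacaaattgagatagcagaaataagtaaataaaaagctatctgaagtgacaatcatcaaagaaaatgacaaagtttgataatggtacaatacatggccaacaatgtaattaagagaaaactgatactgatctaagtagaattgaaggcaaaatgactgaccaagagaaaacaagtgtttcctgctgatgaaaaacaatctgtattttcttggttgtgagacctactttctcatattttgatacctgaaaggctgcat
Aldh1a2 intron (chr9:71256491-71256790, + strand): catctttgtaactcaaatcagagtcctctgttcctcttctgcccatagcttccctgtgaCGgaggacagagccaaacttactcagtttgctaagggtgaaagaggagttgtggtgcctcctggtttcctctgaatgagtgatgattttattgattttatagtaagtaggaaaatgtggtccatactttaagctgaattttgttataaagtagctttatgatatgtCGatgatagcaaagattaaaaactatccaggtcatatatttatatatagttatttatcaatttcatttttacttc
Jaml intron (chr9:45092424-45092723, + strand): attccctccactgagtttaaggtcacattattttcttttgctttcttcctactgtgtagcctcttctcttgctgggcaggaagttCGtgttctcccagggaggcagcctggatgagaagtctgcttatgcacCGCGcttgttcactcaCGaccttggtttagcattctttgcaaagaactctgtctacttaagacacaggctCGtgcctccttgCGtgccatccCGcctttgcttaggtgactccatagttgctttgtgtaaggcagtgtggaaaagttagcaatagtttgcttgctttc
Between Izumo1r and Panx1 (chr9:14943868-14944167, + strand): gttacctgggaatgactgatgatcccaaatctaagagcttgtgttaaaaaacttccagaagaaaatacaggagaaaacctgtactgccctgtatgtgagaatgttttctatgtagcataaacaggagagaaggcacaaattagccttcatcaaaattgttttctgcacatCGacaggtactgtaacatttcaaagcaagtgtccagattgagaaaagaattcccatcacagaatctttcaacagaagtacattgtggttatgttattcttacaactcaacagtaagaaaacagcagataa
Iqch intron (chr9:63511175-63511474, + strand): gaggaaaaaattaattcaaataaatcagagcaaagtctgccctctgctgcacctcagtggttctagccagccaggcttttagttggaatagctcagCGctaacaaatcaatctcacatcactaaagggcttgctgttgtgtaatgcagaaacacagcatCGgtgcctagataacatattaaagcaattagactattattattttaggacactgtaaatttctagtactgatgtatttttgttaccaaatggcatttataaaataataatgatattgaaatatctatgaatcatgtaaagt
Dock3 intron (chr9:106965685-106965984, + strand): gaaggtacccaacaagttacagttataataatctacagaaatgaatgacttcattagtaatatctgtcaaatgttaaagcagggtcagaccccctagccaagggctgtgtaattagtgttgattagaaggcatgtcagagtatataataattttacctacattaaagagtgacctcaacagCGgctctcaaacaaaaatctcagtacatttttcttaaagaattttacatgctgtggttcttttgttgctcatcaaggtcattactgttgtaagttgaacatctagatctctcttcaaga

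These windows, chosen outside untranslated regions, were poor in CpG except the one in Jaml. The Jaml window held 7 CpG and had a GC content of 47.7%, and its peak had a −log10 q of 5.82. The Neo1 window held 1 CpG at 31.7% GC, the lowest GC of the set, under a peak with a −log10 q of 5.20. The Aldh1a2 and Iqch windows held 2 CpG each, at 35.3% and 34.3% GC. The windows between Izumo1r and Panx1 and in Dock3 held 1 CpG each, at 36.7% and 35.3% GC. These windows do not stand for all peaks of the chromosome. Over all peaks the GC content was close to that of the chromosome they lie on, and CpG were not denser. Replicated peaks had 42.7% GC and 8.18 CpG per kb, against 42.7% and 8.84 per kb for the assembled sequence of chromosome 9. The peaks with a −log10 q of at least 2 had 42.0% GC and 8.15 CpG per kb. Soft-masked repeats made up 19.8% of peak bases and 32.0% of the chromosome, with 19.8% in replicate 1's own peaks and 19.6% in replicate 2's.

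The peaks covered 1014907 bases, or 0.815% of chromosome 9. The own list of replicate 1 held 5190 peaks and covered 0.968%, and that of replicate 2 held 7168 peaks and covered 1.32%. Replicate 2 thus covered 1.36 times as many bases of this chromosome as replicate 1. Most replicated peaks were narrow and weak. Their median width was 285 bp (150 to 2549 bp), and the authors' signal value, a score whose definition is not stated, ran from 1.89 to 7.66 with a median of 3.54. The −log10 q reached 2 in 339 peaks, which is 11.7% on chromosome 9 and 10.9% over the chromosomes analysed. In the replicates' own lists on chromosome 9 that share was 32.4% and 13.4%. The files hold no read counts, so depth is unknown, and absence of a peak does not show absence of the mark.

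H3K27me3 gathered in a few parts of the chromosome. Of 125 bins of 1 Mb, the 5 fullest held 35.6% of all replicated peak bases and the 10 fullest held 51.7%, while the median bin with assembled sequence held 1191.5 bases. Over the chromosomes with peaks, the fullest 8% of bins held from 36.6% (chromosome 19) to 87.0% (X). Such concentration is thus not particular to chromosome 9. Bases on chromosome 9 were also concentrated in each replicate's own list, but less so. That list's own 10 fullest bins held 46.7% in replicate 1 and 41.4% in replicate 2. All 5 of the fullest bins were also the 5 fullest in both replicates. Of the 10 fullest, 9 were among the 10 fullest of replicate 1 and 8 among those of replicate 2.

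**Figure D1:**
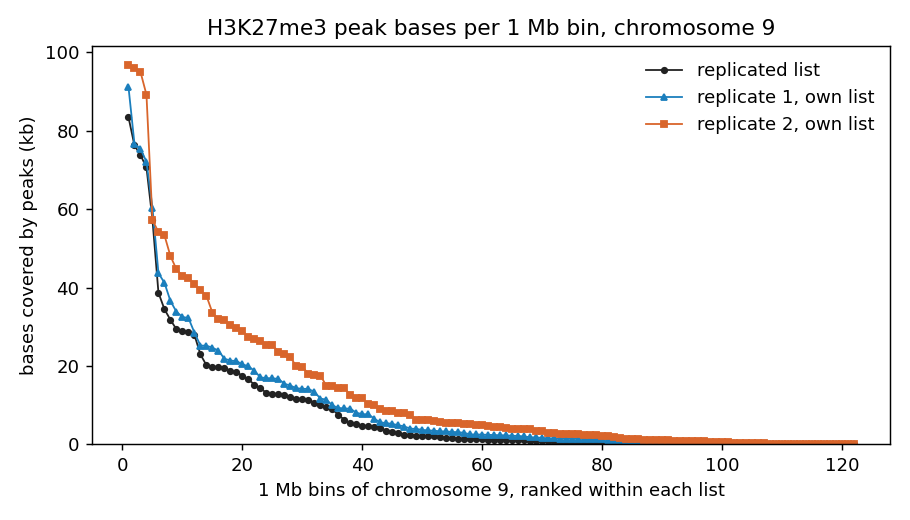
Bases covered by H3K27me3 peaks (kb) in the 1 Mb bins of chromosome 9 that hold assembled sequence, ranked within each list from the fullest to the emptiest; black circles are the replicated list, blue triangles replicate 1 and orange squares replicate 2. In each list 4 bins stand above 70 kb, the next lies between 57 and 61 kb, and most bins lie near 0.

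The fullest bin, from 14000001 to 15000000, held 197 peaks covering 83511 bases, with 91245 in replicate 1 and 95065 in replicate 2. Its genes with most covered bases were Amotl1, an angiomotin family protein of cell junctions, Kdm4d, a histone H3 lysine 9 demethylase, and 1700012B09Rik. The bin from 71000001 to 72000000 came next, with 76294 bases, against 75411 and 96832 in the replicates, and was led by Aldh1a2, Cgnl1 and Myzap. Aldh1a2 makes retinoic acid, Cgnl1 is a cingulin-like protein of tight junctions and Myzap is a junction protein of heart muscle. The bin from 107000001 to 108000000 held 73827 bases, with 72132 and 89235 in the replicates, and was led by Dock3, Cacna2d2 and Sema3f. Dock3 activates the small GTPase Rac in neurons, Cacna2d2 is an auxiliary subunit of voltage-gated calcium channels and Sema3f is a secreted axon guidance cue. The bin from 58000001 to 59000000 held 70660 bases, with 76694 and 96063 in the replicates, and was led by Neo1, a netrin receptor, Stra6, a receptor for retinol uptake, and Islr, a leucine-rich repeat protein of the immunoglobulin superfamily. The bin from 45000001 to 46000000 held 57338 bases, with 60425 in replicate 1 and 57255 in replicate 2, and was led by the adhesion genes Jaml and Mpzl3 and by BC049352. It was the only one of the 5 in which replicate 2 did not exceed replicate 1. The next 5 bins started at 59000001, 63000001, 20000001, 106000001 and 55000001 and held between 28935 and 38675 bases, so that 4 of the 10 fullest bins form neighbouring pairs, 1 pair around Neo1 and 1 around Dock3.

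Other stretches of the chromosome were empty. Of the 122 bins with assembled sequence, 32 held no replicated peak (26.2%), against 44.5% of such bins over the chromosomes analysed. The own lists covered at least a base in 16 of these 32 bins in replicate 1 and in 21 in replicate 2, and 10 were empty in both. The longest gap between replicated peaks ran from 25365860 to 30412019, or 5046160 bp, and held 14 protein-coding genes. Within it replicate 1 covered 424 bases and replicate 2 covered 1250. Over the 122 bins, covered bases had a Spearman correlation of 0.438 with GC content and of 0.584 with the number of gene starts. These bins share both libraries and the control, and the values are given as a description. The median GC was 46.4% in the 5 fullest bins, 42.9% in all and 41.1% in the empty ones, and the median number of gene starts was 14, 7 and 2.

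Single peaks mostly had close neighbours. The median gap from a peak to the next was 1072.5 bp on chromosome 9 and 1362 bp over the chromosomes analysed. A neighbour lay within 3 kb of 2430 peaks (84.1%), while 199 peaks (6.89%) had none within 10 kb and 39 had none within 100 kb. When peaks within 3 kb were joined, chromosome 9 held 966 domains, of which 459 were lone peaks and 44 reached 10 kb. Those 44 are 4.55% of the domains, against 3.49% over the chromosomes analysed, and they held 740 peaks and 30.2% of the covered bases. Joining within 10 kb gave 553 domains, of which 138 reached 10 kb and held 72.8% of the covered bases. Of the 44 long domains, 28 overlapped a protein-coding gene, 16 did not, and only 5 held the start of one. Replicate 1 covered between 11.9% and 59.3% of the bases of a long domain (median 33.8%) and replicate 2 between 14.0% and 53.0% (median 37.3%). Coverage was higher in replicate 2 in 30 of them and higher in replicate 1 in 14.

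The 2 longest domains at 3 kb lay inside genes, away from the annotated start. The longest ran over 53004 bp of Neo1 (58905535 to 58958538) with 55 peaks, which covered 47.5% of it, with 42.5% in replicate 1 and 45.9% in replicate 2. Its sequence window is the first of those printed above. The second ran over 52743 bp (71243591 to 71296333) to the end of Aldh1a2, with 37.4% covered, 39.4% in replicate 1 and 35.6% in replicate 2. The replicates differed by 3.41 percentage points in the first domain and 3.82 in the second. The third, of 44706 bp (45052376 to 45097081), was the most filled of the 10 longest, with 61.3% covered, 54.6% in replicate 1 and 51.0% in replicate 2. It overlapped Mpzl2, Mpzl3 and Jaml, neighbouring genes of adhesion proteins with immunoglobulin domains, and held the starts of Mpzl3 and Jaml.

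The fourth domain lay outside protein-coding genes (14930349 to 14963312, 32964 bp). Its covered share was 44.5%, with 38.0% in replicate 1 and 41.7% in replicate 2. It overlapped the long non-coding RNA gene Gm47214, 26399 bp from Izumo1r, an egg receptor of fertilisation, and 38815 bp from Panx1, a membrane channel gene. The fifth, of 29769 bp, lay in Iqch, a gene for a protein with a calmodulin-binding IQ motif, with 31.9% covered, 29.0% in replicate 1 and 36.0% in replicate 2. The next 5 were 21265 to 24608 bp long. Of these, 2 lay in Dock3, 1 overlapped Piwil4, a gene of the PIWI family that acts with small RNAs in the germ line, and 1 held the start of Amotl1. The other, between Iqcf4 and Iqcf6, was thinly filled, with 13.8% covered, 11.9% in replicate 1 and 20.2% in replicate 2.

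Joining within 10 kb made Dock3 the longest domain on the chromosome, at 224850 bp (106915005 to 107139854) with 130 peaks. Peaks covered 24.3% of it, with 21.9% in replicate 1 and 27.5% in replicate 2. Behind it came a domain of 131564 bp over Aldh1a2 and past its end (71216826 to 71348389), one of 121844 bp in Iqch, one of 90063 bp in Neo1 and one of 74318 bp over Amotl1 and Piwil4. The order depended on the list and on the joining distance. Replicate 1's own peaks put the longest domain in Neo1 at 3 kb (64844 bp) and in Dock3 at 10 kb (298787 bp). Replicate 2's own peaks put it in Dock3 at 3 kb (83367 bp) and around Neo1 at 10 kb (403252 bp). Of the 44 long domains at 3 kb, 40 lay by at least 50% of their length in a long domain of replicate 1, and 40 in one of replicate 2. At 10 kb the same held for 131 and 136 of 138.

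The block from 106900001 to 107200000 lies wholly within Dock3 (106892825 to 107231909, minus strand, 339085 bp), a gene with a role in the nervous system. It held 163 replicated peaks, 236 peaks of replicate 1 and 257 of replicate 2. The replicated peaks covered 21.9% of the block, those of replicate 1 covered 20.5% and those of replicate 2 covered 24.6%. The block makes up 0.241% of chromosome 9 and held 6.47% of its replicated peak bases. Of 415 windows of that length set end to end on the chromosome, 0 were covered as much, but the block had been picked for its coverage, so this rank is a description. The peaks were spread out and mostly weak. They formed 24 domains at 3 kb, of which 5 reached 10 kb, their median width was 325 bp, 31 of the 163 had a −log10 q of at least 2, and the highest −log10 q was 3.15. Both replicates had an overlapping peak at 136 of them (83.4%). The block had 40.1% GC and 43.1% soft-masked repeats.

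Within Dock3 the mark was uneven, with its fullest steps in the interior and, in the replicated list, low steps at both ends. Of 34 steps of 10 kb from the annotated start, 33 held replicated peak bases and 24 were covered over at least 10%. The fullest step, 260 to 270 kb from the start, was covered over 53.1%, with 40.5% in replicate 1 and 58.7% in replicate 2. In replicate 1 the fullest was 180 to 190 kb from the start, at 41.0%, where the replicated list had 51.8% and replicate 2 had 49.0%. The steps from 170 to 300 kb ranged from 17.2% to 53.1% in the replicated list. Those from 40 to 70 kb were covered over 27.7%, 37.4% and 21.9%. Between them, from 70 to 170 kb, the steps ranged from 2.57% to 22.7%, so low steps also lay in the interior. In the replicated list coverage was low from 0 to 40 kb, at 2.57% to 12.6%, and from 300 to 340 kb, at 0% to 8.39%. The first step was fuller in the own lists, at 18.0% in replicate 1 and 20.95% in replicate 2. The 1 kb on either side of the start held 0 replicated bases, 179 in replicate 1 and 0 in replicate 2. Exons of Dock3 were covered over 24.4% and introns over 20.2%.

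Marking stopped near the borders of the gene at its 3′ end and ran past its start at the 5′ end. No list held a peak in the 50 kb past the end of Dock3. The last peak there began at 106896927 for the replicated list, 106896882 for replicate 1 and 106896949 for replicate 2, a spread of 67 bp. Upstream of the start the first 10 kb were covered over 43.5%, with 37.2% in replicate 1 and 32.8% in replicate 2, by a domain of 10154 bp (107234713 to 107244866) that overlaps the long non-coding RNA gene 1700039M15Rik. From 20 to 50 kb upstream all lists were empty. The nearest protein-coding neighbours, Manf, Rbm15b and Dcaf1 on the 3′ side and Mapkapk3, Cish and Hemk1 on the 5′ side, had 0% of their bodies covered in the replicated list and in both replicates. They were chosen as the closest genes, after these values had been seen.

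**Figure D2:**
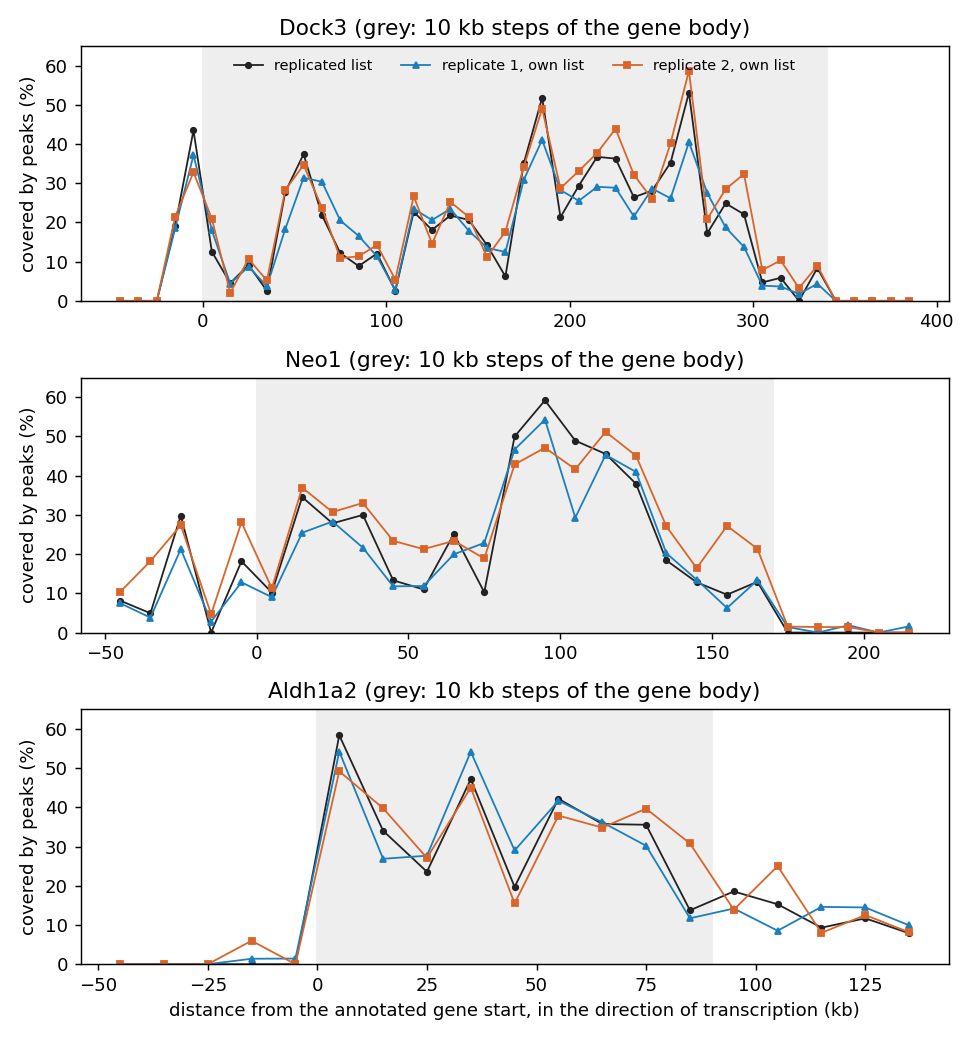
Share of each 10 kb step covered by peaks (%) against distance from the annotated gene start in the direction of transcription (kb), for Dock3, Neo1 and Aldh1a2; grey marks the steps of the gene body, the last of which runs past the gene end, and black, blue and orange are the replicated list, replicate 1 and replicate 2. Dock3 and Neo1 are fullest well inside the gene, at 53.1% and 59.2%, and Aldh1a2 in its first step, at 58.4%.

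Neo1 (58874687 to 59036441, minus strand) and Aldh1a2 (71215789 to 71296243, plus strand) were filled in different ways. In Neo1 all 17 steps held replicated peak bases, 16 of them over at least 10%, and coverage was highest 90 to 100 kb from the start, at 59.2% (54.3% in replicate 1 and 47.1% in replicate 2). Replicate 2 was highest at 110 to 120 kb, with 51.2%. The mark also lay upstream of Neo1, but with a break. The first 10 kb before the start were covered over 18.2% and the next 10 kb over 0% (2.80% and 4.68% in the replicates). At 20 to 30 kb before the start 29.8% was covered (21.3% and 27.4% in the replicates). At the other end replicated peaks ran past the gene end at 58874687 to 58866816. The 50 kb of steps after that held no replicated base. In Aldh1a2 the first 10 kb were covered over 58.4% (54.2% in replicate 1 and 49.2% in replicate 2), and the 50 kb before the start held no replicated base, with at most 1.45% of a step in replicate 1 and 5.99% in replicate 2. All 9 steps of the body were covered over at least 10% in every list, and coverage continued past the gene end, at 7.89% to 18.6% per step. The body of Aqp9, the gene on the upstream side, held 0 bases in all 3 lists. In Iqch the replicated peaks lay in the interior: its first and last steps held 0 replicated bases, and its fullest, 90 to 100 kb from the start, was covered over 39.6% (29.2% and 46.7% in the replicates).

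Of the 1210 protein-coding genes of chromosome 9, 224 (18.5%) held a replicated peak base in the body or the 5 kb upstream, against 15.3% of protein-coding genes over the chromosomes analysed. Covered bodies and marked starts were both a small part of these. At least 10% of the body was covered in 38 genes (3.14%, against 2.03% over the chromosomes analysed), 36 of them at least 5 kb long. In replicate 1's own list the count was 42 and in replicate 2's it was 58, and 35 of the 38 genes reached 10% in both. Of the 38, 19 had no replicated peak within 1 kb of the start. A gene's start counted as marked when at least 1 bp of a peak fell within 1 kb of it, and 54 genes had a marked start (4.46%, against 3.0% over the chromosomes analysed). Replicate 1's own peaks marked 69 starts and replicate 2's marked 99, and of the 54, 45 were marked in both replicates' own lists and 0 in neither.

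The 10 fullest bodies of at least 5 kb held genes of varied function, among them Rdh8, Jaml, Mpzl3, Aldh1a2 and Il10ra. Rdh8 (20818503 to 20826117), a retinol dehydrogenase of photoreceptors, was covered over 56.2% of its 7615 bp, with 39.6% in replicate 1 and 55.1% in replicate 2. Jaml, an adhesion molecule of migrating leukocytes, was covered over 49.0%, with 44.1% and 44.8% in the replicates. Mpzl3, an adhesion protein known from skin and hair, was covered over 48.1%, with 47.3% and 39.7%. The replicates were 15.5 percentage points apart for Rdh8, 0.736 for Jaml and 7.64 for Mpzl3. Aldh1a2 was covered over 37.2%, with 37.6% in replicate 1 and 36.4% in replicate 2. Il10ra (45253837 to 45269149), a subunit of the receptor for interleukin 10, was covered over 32.0%, with 35.2% in replicate 1 and 23.5% in replicate 2.

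The rest of the 10 fullest bodies of at least 5 kb reached 25.0% to 29.8%. Cyp1a1, a cytochrome P450 enzyme that oxidises foreign aromatic compounds, was covered over 29.8%, with 27.4% and 30.2% in the replicates. Neo1 was covered over 27.7%, with 25.5% and 30.9%. Spesp1, a sperm protein gene, was covered over 25.9%, with 15.8% and 25.7%. Robo4, a guidance receptor of endothelial cells, was covered over 25.1%, with 23.5% and 33.2%. Rgl3, an activator of Ral GTPases, was covered over 25.0%, with 21.4% and 22.7%, and its body held the peak with the highest −log10 q on the chromosome (21983185 to 21984366, 6.40). Dock3 stood lower by this measure, at 20.4%, with 19.2% and 23.0%, but its body held the most covered bases of these genes, 69161, against 44797 in Neo1 and 29942 in Aldh1a2.

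**Figure D3:**
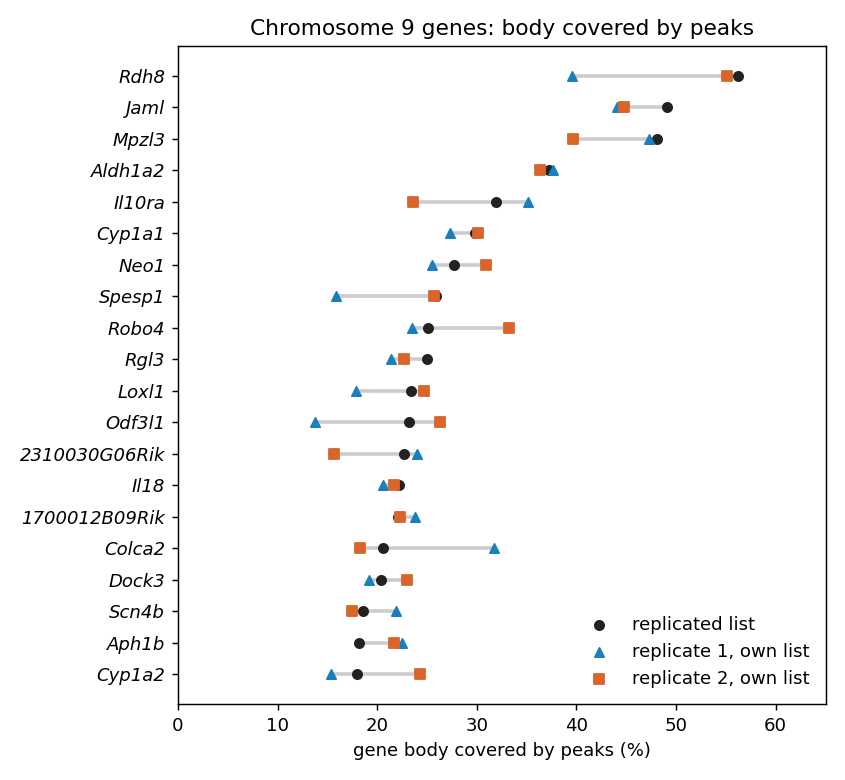
Share of the gene body covered by H3K27me3 peaks (%) for the 20 chromosome 9 genes of at least 5 kb with the highest share in the replicated list; black circles are the replicated list, blue triangles replicate 1, orange squares replicate 2, and grey bars join the lowest and highest of these values. Rdh8, Jaml and Mpzl3 lie highest, and the replicates lie far apart for Rdh8 (39.6% and 55.1%) and close for Aldh1a2 (37.6% and 36.4%).

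Other covered bodies lay outside the naming rule and were chosen after their values were seen. Loxl1, an enzyme that cross-links elastin, was covered over 23.4% of its body, with 17.9% in replicate 1 and 24.7% in replicate 2. Il18, an inflammatory cytokine, was covered over 22.1%, with 20.6% and 21.7%, and it overlaps Tex12, a gene of the meiotic synaptonemal complex, so peaks where they overlap count for both. Pou2af1, a coactivator of B cells, was covered over 16.5%, with 20.5% and 15.8%. Prtg, a receptor of the embryo, was covered over 13.0%, with 13.5% and 15.3%. All of these were covered in both replicates.

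Around gene starts, the adhesion genes led. Within 5 kb on either side of its start, Jaml had 7234 covered bases, with 5756 in replicate 1 and 6132 in replicate 2. Mpzl3 had 5297, with 4920 and 4759 in the replicates, and Amotl1 had 5253, with 4026 and 4996. For these genes the replicated list, whose peaks come from both libraries together, covered more bases than either replicate. Ccr9, a chemokine receptor of gut-homing T cells and thymocytes, had 4132 bases, with 3995 and 3699 in the replicates. Slc6a20a, a proline transporter gene whose start is close by, had the same 4132 replicated bases, so its peaks cannot be told from those of Ccr9. A peak near both starts (123677695 to 123678292) had its summit 293 bp from the start of Ccr9 and a −log10 q of 5.82.

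The other genes of this top 10 held 3054 to 3801 bases. Slc38a3, a glutamine transporter, had 3801, with 2865 in replicate 1 and 3598 in replicate 2. Nrg4, a ligand of the ErbB4 receptor, and its neighbour Tmem266, a voltage-sensing membrane protein, had 3605 and 3562 and share peaks, with 3748 in replicate 1 and 2905 in replicate 2 for both. The gene 1700012B09Rik had 3090, with 3489 and 3177, and Il10ra had 3054, with 2636 and 2473. Smaller marks at starts included Mcam, an adhesion molecule of the endothelium, with 1148 bases within 1 kb, Mobp, a myelin gene, with 1052, and Pth1r, the receptor of parathyroid hormone, with 864. These 3 were picked after their values were seen.

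Genes were also read by group, where a group's counts describe its members and carry no test. The lists were chosen with earlier results of these data known. The adhesion list holds Neo1, Mpzl2, Mpzl3 and Jaml, which lie in the longest domains. A group's share above that of all genes is therefore no independent finding. Of 24 immunoglobulin-superfamily adhesion genes on chromosome 9, 11 held a replicated peak base (45.8%, against 15.3% of protein-coding genes over the chromosomes analysed), 5 had a marked start and 5 had at least 10% of the body covered. Besides Neo1, Jaml and Mpzl3 the fullest by bases was Islr, and 13 members were at 0, among them the neural adhesion genes Ncam1 and Opcml and the surface glycoprotein gene Thy1. Of 10 cytochrome P450 and retinoid genes, 6 held a base (60.0%), 2 had a marked start and 4 had at least 10% of the body covered. For both groups, the shares of protein-coding genes over the chromosomes analysed were 15.3% with a base, 3.0% with a marked start and 2.03% with a covered body. On chromosome 9 itself these shares were 18.5%, 4.46% and 3.14%. Aldh1a2 led with 29942 bases, followed by Stra6 with 6739, Cyp1a1 with 4743 and Cyp11a1, the first enzyme of steroid synthesis, with 3142. The aromatase gene Cyp19a1 and the retinol-binding protein gene Rbp2 held 0.

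A list made for erythroid and other haematopoietic genes was read next. It also holds genes of general function, such as Rhoa and Gpx1, which the housekeeping list shares, so its counts are not of blood-cell genes alone. Of the 24 genes on this list, 5 held a base (20.8%, against 18.5% of all protein-coding genes of chromosome 9 and 15.3% over the chromosomes analysed). A marked start was found in 1 and a body covered over at least 10% in 0, against 3.0% and 2.03% of protein-coding genes over the chromosomes analysed. In each replicate's own list 7 held a base. The members with bases were Cd109, a surface glycoprotein, with 8169, the transcription factor genes Ets1 with 7285 and Zbtb16 with 4928, the tropomodulin gene Tmod2 with 700 and Tfdp2, a partner of E2F factors, with 293. The erythropoietin receptor gene Epor held 0 replicated bases, with 208 in replicate 1 and 204 in replicate 2. Trf, the transferrin gene, held 0, against 406 in the own list of replicate 1 and 0 in that of replicate 2, and the haem synthesis gene Alas1 held 0. Of the Cd3 genes of the T-cell receptor complex, Cd3g held 736 bases and Cd3d and Cd3e held 0, and in the own lists 2 of the 3 held a base in replicate 1 and 3 in replicate 2.

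Families of receptors and proteases differed in how many members held a replicated base. Of 15 chemokine receptor genes, 3 held one (20.0%, against 15.3% of protein-coding genes over the chromosomes analysed). Among them were Ccr9 with 5596 bases and Xcr1 with 386, which both had a marked start, as did 3.0% of protein-coding genes over those chromosomes. In the own lists 8 of the 15 held a base in replicate 1 and 9 in replicate 2. Of 9 matrix metalloproteinase genes, which encode enzymes that cut the extracellular matrix, 6 held a base (66.7%), with 6 in replicate 1 and 8 in replicate 2, led by Mmp20, an enamel protease, with 2716, and followed by Mmp10 with 348, Mmp8 with 260 and Mmp7 with 220. Mmp10 was the one with a marked start. Of 132 olfactory receptor genes 3 held a base, Olfr160 with 853, Olfr986 with 293 and Olfr58 with 215, and 7 and 11 held a base in replicates 1 and 2. That is 2.27% of the family, against 15.3% of protein-coding genes over the chromosomes analysed.

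Of 21 ion channel and neurotransmitter receptor genes, 9 held a base (42.9%, against 15.3% of protein-coding genes over the chromosomes analysed). A marked start was found in 2, as in 3.0% of protein-coding genes over those chromosomes. Cacna2d2 held 4011 bases, the nicotinic receptor gene Chrna5 held 3518 and the sodium channel subunit genes Scn4b and Scn2b held 2927 and 1624. Of 4 semaphorin and plexin genes 3 held a base (75.0%, against the same 15.3%): Sema3f with 2623, Sema7a with 633 and the receptor gene Plxnb1 with 349. Sema7a had 0 bases in replicate 1 and 994 in replicate 2. Of the Dock family, Dock3 held 70473 bases and Dock6, which acts on Rac and Cdc42, held 1139.

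Developmental transcription factor and housekeeping genes held a base in 15.8% and 12.5% of cases, near or below the 15.3% of protein-coding genes over the chromosomes analysed. Of 19 developmental transcription factor genes, 3 held a base and 0 had a marked start: Pou2f3, a factor of epidermis and tuft cells, with 2742, Nr2e3, a photoreceptor factor, with 396, and the nuclear receptor gene Rora with 252. Eomes, Tbx18, Tbx20, Zic1, Zic4 and Foxl2 were among the 16 at 0. Of 16 housekeeping genes 2 held a base, the beta-catenin gene Ctnnb1 with 1151 and the elongation factor gene Eef1a1 with 813, of which Eef1a1 had a marked start. Of 9 Polycomb and other chromatin genes, Kdm4d alone held bases, 5680. Of 3 glutathione S-transferase alpha genes, Gsta2 held 392 bases, and all 6 genes of the apolipoprotein cluster held 0 in each list.

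By position in genes, peak bases lay more in introns and less between genes than the chromosome's sequence does. Bodies of protein-coding genes held 54.9% of replicated peak bases and make up 45.9% of the assembled chromosome. Introns held 50.6% and make up 41.2%, and exons held 4.31% and make up 4.71%. The 1 kb on either side of gene starts held 2.58% of peak bases and makes up 1.89% of the sequence. These are shares without a test.

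Agreement between replicates was strong at the scale of 1 Mb and weak at the scale of single bases. Over the 122 bins the covered bases of the replicates had a Pearson correlation of 0.985 and a Spearman correlation of 0.974. Without the 2 bins farthest from the median of replicate 1 these were 0.983 and 0.972. Replicate 2 covered more bases in 103 bins, replicate 1 in 9, and 10 were equal. The difference was not uniform: replicate 2 covered 1.28 times as much as replicate 1 at 71 to 72 Mb, 1.68 times at 13 to 14 Mb and 3.96 times at 60 to 61 Mb, where the bases were 3653 and 14453. The bins share 1 control, and replicates of 1 cell line, so the correlation is a description.

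**Figure D4:**
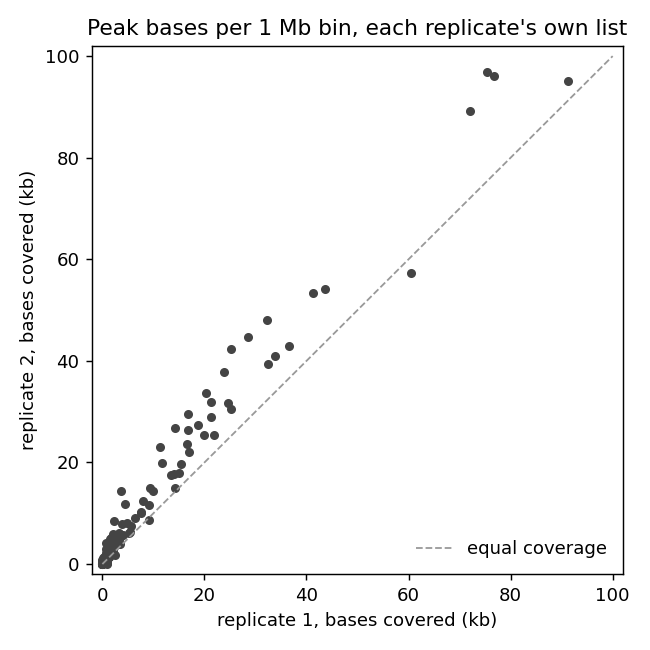
Bases covered by H3K27me3 peaks (kb) in each 1 Mb bin of chromosome 9 in replicate 1 (horizontal) and replicate 2 (vertical), with a dashed line of equal coverage. Each point is a bin with assembled sequence, and most points lie above the line. The fullest bins lie apart from the rest, but the bin at 45 to 46 Mb does so only in replicate 1. There it held 60425 bases and the next bin 43688, while in replicate 2 these values were 57255 and 54151.

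By single bases, the replicates' own lists shared 429739 of the 2414902 bases that either covered, a Jaccard index of 17.8%. The shared bases were 35.6% of those of replicate 1 and 26.2% of those of replicate 2. By peaks, 2424 of 5190 peaks of replicate 1 (46.7%, exact Clopper-Pearson 95% interval 45.3% to 48.1%) shared at least 1 bp with a peak in replicate 2, against 44.9% over the chromosomes analysed. Of the 7168 peaks of replicate 2, 2430 (33.9%, 32.8% to 35.0%) overlapped a peak of replicate 1, against 29.8%. The intervals cover counting of peaks only and treat neighbouring peaks as independent.

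Among the 2889 replicated peaks, 2416 (83.6%) overlapped a peak of replicate 1, 2567 (88.9%) a peak of replicate 2, and 2106 (72.9%, 71.2% to 74.5%) a peak of both. The last share was close to the 72.4% over the chromosomes analysed. Replicated peaks are a selection made in part from these lists, so the overlap is not independent support for them. A peak of replicate 1 alone was found at 310, of replicate 2 alone at 461, and of neither at 12. Most of the peaks seen in a single replicate had a peak of the other nearby: within 5 kb, 95.5% of the 310 had a covered base in replicate 2 and 92.8% of the 461 had one in replicate 1. Peaks gather closely here, with a replicated neighbour within 3 kb of 84.1% of replicated peaks. These shares therefore do not show agreement at the peak itself. Only 2 of the 310 and 6 of the 461 had a −log10 q of at least 2.

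Agreement fell with the strength of the peak. When the replicated peaks were split into 4 groups of about equal size by −log10 q, both replicates had a peak at 92.1% of the strongest group, 79.4% of the second, 63.9% of the third and 56.2% of the weakest. The ranking is not independent of the replicates, since the peaks of the replicated list come from both libraries together. Peaks of equal −log10 q also fell on both sides of each border between groups. Median widths fell from 386 bp in the strongest group to 252.5 bp in the weakest. Peaks inside the 44 long domains overlapped both replicates in 82.8% of cases, and 21.2% of them had a −log10 q of at least 2. For peaks without a neighbour within 10 kb these shares were 60.3% and 3.52%, and their median width was 240 bp against 320.5 bp in long domains. Peak width moved with agreement in both splits, and its part in the result was not tested. Over the 2106 peaks seen in both replicates, the authors' signal values in the replicates had a Pearson correlation of 0.293 and a Spearman correlation of 0.261.

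**Figure D5:**
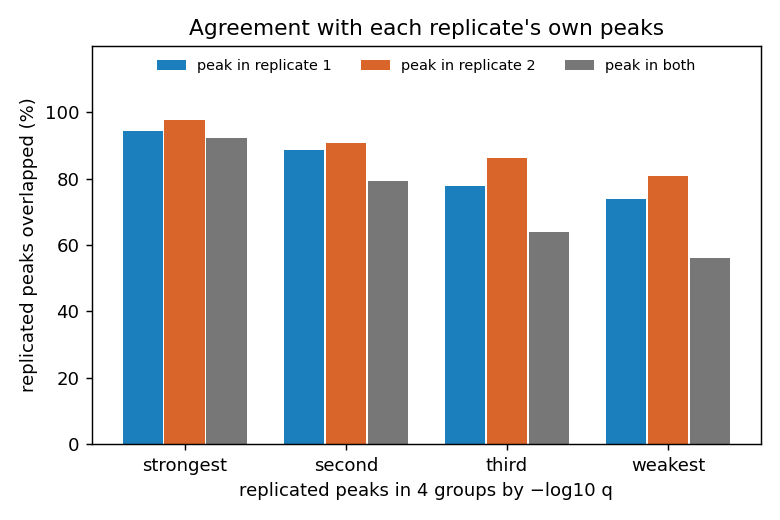
Share of chromosome 9 replicated peaks (%) overlapped by a peak of replicate 1 (blue), of replicate 2 (orange) or of both (grey), in 4 groups by −log10 q from the strongest to the weakest. The share with both falls from 92.1% to 56.2%, and replicate 2 is above replicate 1 in every group.

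Set beside other chromosomes, chromosome 9 ranked 4 of 21 by the share of its length covered, in the replicated list and in each replicate's own list. Chromosome 11 was covered over 1.86%, chromosome 19 over 0.873%, chromosome 15 over 0.841% and chromosome 2 over 0.667%, against 0.815% on chromosome 9. Long domains held 30.2% of the covered bases on chromosome 9, 37.5% on chromosome 11, 34.4% on chromosome 15, 23.6% on chromosome 19 and 14.6% on chromosome 2. The Jaccard index of the replicates was 17.8% on chromosome 9, between 13.6% on chromosome 2 and 23.9% on chromosome 11, and 15.8% over the chromosomes analysed. No test was attached to these differences.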

How the data were processed

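H3K27me3 peak lists of 2 biological replicates of MEL cells, which form 1 group, were analysed. Per the deposited text descriptions, peak calling on mm10 used the alignments of each replicate alone, and of both for a pooled list, with the same control alignment each time, and a replicated list was made from those 3. The aligner, the peak caller and the rule of replication were not given in the sources used here. The signal value deposited by the authors is a score without a stated definition, and it was used only to rank peaks, filter them and pair replicates. Each peak also carries p and q on a −log10 scale, as deposited.

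Covered bases were taken from the union of peaks, over chromosomes 1 to 19, X and Y. Genes were the protein-coding genes of GENCODE mouse release 21 on GRCm38 (21911 over those chromosomes), and sequence was the RefSeq FASTA of that build. Symbols listed more than once kept 1 gene. The start was the outermost annotated 5′ end. Overlap meant at least 1 bp. Shares of peaks have exact Clopper-Pearson 95% intervals. Bins were counted from the chromosome start. Group coverage counted the body plus 5 kb upstream. Of 16 gene lists, the vomeronasal list had 0 genes on chromosome 9. In the lists given by symbol, 165 of 216 symbols were found there.

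Named genes were those in the 10 longest domains at 3 kb or the 5 longest at 10 kb, in the block, among the 10 with most bases within 5 kb of the start or the fullest bodies of at least 5 kb, the 3 leading genes of the 5 fullest bins, and up to 4 members of each list. Some genes that this rule selects are not reported here. The members and lists were chosen with earlier results of these data known. With 1 group, no test between conditions was made. Read depth is unknown, since the lists hold no read counts. Alternatives included peaks with −log10 q of 2 or more, the 50% with the highest signal value, other lists, bins, joining distances, windows and overlap rules. The code, in Python 3.11.15 with numpy 2.4.6, scipy 1.17.1 and pysam 0.24.0, was tested on simulated data. Coordinates of the mm9 list were never mixed with mm10.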

Additional observations from a re-analysis of the deposited data

Results flagged for a closer look

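An older list of peaks on the mm9 build was used in no comparison, and it held peaks on chromosome 9 as well. It had 2562 peaks there of 40712 in all, covering 593036 bases. Chromosome 9 held 6.51% of that list's covered bases and 7.80% of those of the replicated list on mm10. The peaks had a median width of 165 bp and a −log10 q from 2.04 to 54.3. Joined within 3 kb they formed 1169 domains, of which 32 reached 10 kb, with the longest at 42629 bp. Joined within 10 kb the longest measured 132115 bp. Positions were not compared, since the builds differ, and how that list was made is not stated.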

How the results depend on the processing

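Of 54 values under other settings, 11 were labelled as staying and 43 as moved. A count stayed within 1.5 times its main value, and another value within a spread narrower than the difference between replicates. The pooled covered share, 1.14% against 0.815%, thus moved, though the replicates had 0.968% and 1.32%. The overlap, Jaccard and correlation values have no value per replicate. All of them were labelled moved, even 0.972 against 0.974 for the rank correlation. The count that changed direction was 0, but shares, counts and lengths have no direction to change, so it says nothing about stability. With a −log10 q of at least 2, the covered share of chromosome 9 was 0.160%, the 10 fullest bins held 69.1% of bases, 1 domain reached 10 kb, the longest 10 kb domain measured 49585 bp (in Neo1), the block was covered over 5.95%, 13 starts were marked, 6 bodies reached 10%, and 97.6% of peaks overlapped both replicates. With the upper 50% by signal value these were 0.427%, 56.8%, 13 domains, 131657 bp, 14.5%, 32 starts and 19 bodies. The pooled list gave 1.14%, 47.6%, 89 domains and 26.6% of the block. With either replicate left out, which leaves the other's own list, the covered share ranged from 0.968% to 1.32%, the 10 fullest bins from 41.4% to 46.7%, long domains from 64 to 131, the longest 10 kb domain from 298787 to 403252 bp, marked starts from 69 to 99 and covered bodies from 42 to 58. Bins of 0.5 Mb (the 20 fullest) held 61.2%. Joining within 1, 5 and 10 kb gave 6, 76 and 138 long domains, and joining within 5 and 20 kb gave a longest domain of 73036 and 347940 bp. Windows of 2.5 kb marked 91 starts, and body thresholds of 5% and 20% gave 73 and 18 genes. With 50% of a peak required to be covered, 54.8% overlapped both replicates. The Jaccard index was 17.3% with equal numbers of peaks and 41.3% after joining within 3 kb. The bin correlation was 0.985 as Pearson's r, 0.881 over 1215 bins of 0.1 Mb, and 0.972 without the 2 bins farthest from the median of replicate 1; Pearson's r without those bins, 0.983, was added after seeing the data.

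Narrow peaks split broad domains, so domain counts and lengths follow the joining distance, and the longest domain lay in Dock3 or Neo1 depending on list and distance. With peaks of −log10 q of at least 2 joined within 3 kb it lay over Mpzl3 and Jaml. Depth is unknown, which limits what an empty bin or gene shows.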
